A study of Mesocricetus auratus with 24 samples.

Results

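GABA-A receptors are chloride channels opened by GABA, the main inhibitory transmitter of the brain. Each channel is assembled from several subunits. Alpha and beta subunits form the GABA site between them, and the alpha, gamma and delta subunits set the place of the channel, its kinetics and its response to benzodiazepines and neurosteroids. In the inferior colliculus (IC), the midbrain relay of the auditory pathway, GABAergic inhibition shapes the response of neurons to sound, and the IC is where audiogenic seizures start. The genes described here are 7 subunits of this receptor, the alpha subunits Gabra2, Gabra3, Gabra4 and Gabra5, the beta subunits Gabrb1 and Gabrb2, and the delta subunit Gabrd. They are a set listed by name, chosen with earlier results of these data known, and make up 7 of the 19938 genes tested. Each has a probe set annotated to that gene symbol alone. A further 9 subunits on the same arrays also have such a probe set and are given beside them.

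RNA from the IC of 24 hamsters (Mesocricetus auratus) aged 16 weeks, with a body weight of about 60 g by the labels, was hybridised to 24 arrays, with 6 arrays per group and 4 groups. These held Syrian control hamsters and hamsters of the GASH/Sal line, a genetic strain with seizures evoked by sound, each either naïve (not exposed to sound) or stimulated (exposed to auditory stimulation, with the IC taken 60 min later). The stimulated GASH/Sal animals convulsed and the stimulated Syrian controls did not, so the response of GASH/Sal hamsters holds sound and seizure together, and these cannot be told apart. The labels call the arrays biological replicates, so a p-value here rests on the animal-to-animal spread. The study's methods give a younger age for the hamsters of its quantitative PCR and immunohistochemistry. It credits the hamster arrays to an earlier study, and the labels' age is used for them here. The arrays carried mouse probes, so each subunit was compared between arrays only. A percentile by mean signal gives the place of a probe set among all genes on these arrays and does not order the subunits by abundance. Whether sequence differences between the strains moved a signal was not tested.

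Values are log2 signals. A difference of 1 on this scale is 2-fold. Differences come from 1 limma fit of all arrays with a term for the label series, explained below, and a difference is called where its adjusted p over all 19938 genes is under 0.05. The GEO labels name the animals in 2 styles, called here series A (replicates 1 to 3 of each group) and series B (replicates 4 to 6), and the labels and methods leave the meaning of the styles unstated. A pair of arrays stood apart by their median correlation with the other arrays over all genes, which was 0.969 for stimulated Syrian replicate 4 and 0.971 for naïve GASH/Sal replicate 6 against 0.979 for the next lowest. Results that rest on either of them are given with and without them. By mean signal among all genes, the 10 markers of IC and midbrain lay from percentile 40.7 (Otx2) to 98.8 (Meis2). The 7 markers of the telencephalon lay from percentile 1.8 (Neurod6) to 88.7 (Bcl11b), with Emx1 at 82.4 and Slc17a7 at 51.2, so the lists overlapped and did not settle the tissue by signal alone.

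No subunit was called in any comparison, with 0 of 7 in each of the 7 comparisons. Few other genes were called. The percentage of all genes called was 0 for the sound response in GASH/Sal, 0 for the sound response in Syrian hamsters, 0 for the strain difference of naïve animals, 0 for that of stimulated animals and 0 for the strain by sound interaction. It was 0.00502% for the sound response averaged over strains (1 gene, Fos) and 0.01% for the strain difference averaged over sound conditions (2 genes, Arl15 and Rasgrf2). These 3 genes were named after their values were seen. The tissue was bulk, so fewer cells of a type and less RNA per cell cannot be told apart in any of these values.

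**Figure D1:**
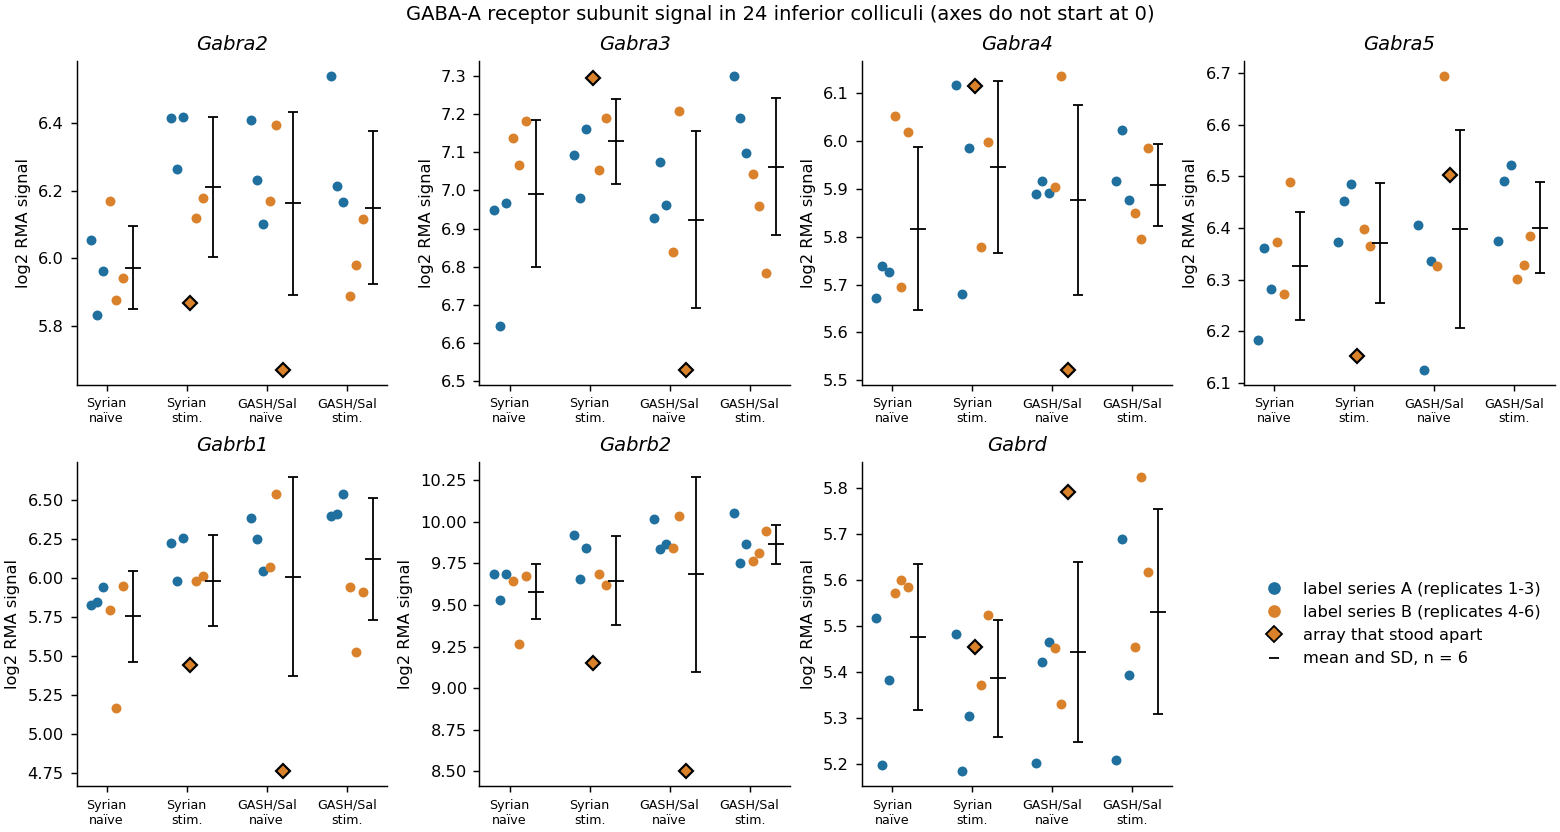
Log2 RMA signal of each subunit (vertical axes, which do not start at 0) on each of 24 arrays in the 4 groups (horizontal axis). Points are arrays coloured by label series, bars are the mean and SD of 6 arrays, and diamonds mark the 2 arrays that stood apart. For Gabrb1 and Gabrb2, 5 of 6 naïve GASH/Sal arrays lie above every naïve Syrian array and the sixth, at 4.76 and 8.50, lies below them all.

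Gabra2 encodes the alpha2 subunit, a benzodiazepine-sensitive alpha subunit found at synapses onto the axon initial segment (probe set 10530406, percentile 82.1 by mean signal). In Syrian hamsters it ranged from 5.83 to 6.17 with a median of 5.95 in naïve animals. It ranged from 5.87 to 6.42 with a median of 6.22 in stimulated animals. The stimulated arrays were mostly higher, 5 of 6 above the naïve mean, but the groups overlapped. Stimulated replicate 4, at 5.87, lay as low as the lower naïve arrays, and stimulated replicate 5, at 6.12, lay below naïve replicate 4, at 6.17. The mean was 5.97 ± 0.123 (SD, n = 6) in naïve and 6.21 ± 0.208 (SD, n = 6) in stimulated animals, a log2 difference of 0.24 with a standard error of 0.104. This was 1.18-fold with a 95% interval of 1.02 to 1.37, and the limma adjusted p was 0.740. With all 24 arrays Gabra2 was the only subunit of the 7 with an unadjusted p under 0.05 in any of the comparisons, and in this one 6.64% of all genes had such a p.

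The higher Gabra2 signal after sound lay mainly in 1 label series. In series A the 3 stimulated Syrian arrays, at 6.27 to 6.42, were all above the 3 naïve arrays, at 5.83 to 6.05, a difference of 0.42. In series B, which holds stimulated replicate 4, the difference was 0.060 and the arrays overlapped. With both apart arrays left out the difference over both series was 0.30 (limma adjusted p = 0.347). In GASH/Sal hamsters Gabra2 ranged from 5.67 to 6.41 with a median of 6.20 in naïve animals. It ranged from 5.89 to 6.54 with a median of 6.14 in stimulated animals. These groups overlapped almost wholly, and the difference was -0.012 with a standard error of 0.104. The difference between the responses of the strains, the interaction, was -0.25 with a standard error of 0.147 and a limma adjusted p of 0.999955. Leaving out both arrays that stood apart gave -0.40, with an adjusted p of 0.744. Between naïve strains Gabra2 was higher in GASH/Sal by 0.19 (SE 0.104, limma adjusted p = 0.818), with 5 of 6 arrays above the Syrian mean. That difference was 0.28 with both apart arrays left out (limma adjusted p = 0.227). By group mean, naïve Syrian animals were lowest and the other 3 groups lay between 6.15 and 6.21.

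Gabra3 encodes the alpha3 subunit, another benzodiazepine-sensitive alpha subunit, common in brainstem and midbrain nuclei (probe set 10604961, percentile 93.6). In Syrian hamsters it ranged from 6.64 to 7.18 with a median of 7.02 in naïve animals and from 6.98 to 7.30 with a median of 7.13 in stimulated animals. In GASH/Sal hamsters it ranged from 6.53 to 7.21 with a median of 6.94 in naïve animals and from 6.78 to 7.30 with a median of 7.07 in stimulated animals. All 4 groups overlapped, with the stimulated group somewhat higher in both strains. The sound response was 0.14 in GASH/Sal (SE 0.102) and 0.14 in Syrian hamsters (SE 0.102). In each strain 5 of 6 arrays taken after sound exceeded the mean of the naïve group, and both limma adjusted p-values were above the threshold (0.999 and 0.832). With both apart arrays left out the responses were 0.059 in GASH/Sal and 0.11 in Syrian hamsters. The interaction with all arrays was 0.0015, with a 95% interval of -0.29 to 0.30. In order of group means Gabra3 ran from naïve GASH/Sal (6.92) through naïve Syrian (6.99) and stimulated GASH/Sal (7.06) to stimulated Syrian (7.13), and each step was smaller than any group's SD. Its strain difference had opposite signs in the label series, 0.13 in series A and -0.26 in series B averaged over sound conditions.

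Gabra4 encodes the alpha4 subunit, which is insensitive to classical benzodiazepines and joins the delta subunit in extrasynaptic receptors (probe set 10530421, percentile 77.3). It ranged from 5.67 to 6.05 with a median of 5.73 in naïve Syrian and from 5.68 to 6.12 with a median of 5.99 in stimulated Syrian animals. It ranged from 5.52 to 6.14 with a median of 5.90 in naïve GASH/Sal and from 5.80 to 6.02 with a median of 5.90 in stimulated GASH/Sal animals. The groups overlapped, and the lowest value of all came from the naïve GASH/Sal array that stood apart. The sound response was 0.13 in Syrian (SE 0.0940) and 0.031 in GASH/Sal hamsters (SE 0.0940). Averaged over strains it was 0.080, with a 95% interval of -0.056 to 0.22. Leaving out both apart arrays turned the GASH/Sal response to -0.046 and took the averaged response to 0.027. Group means ran from 5.82 in naïve Syrian to 5.95 in stimulated Syrian animals with GASH/Sal between them, and each step was smaller than any group's SD. Egr3, an immediate-early transcription factor known to act on the Gabra4 promoter, had a sound response of 0.31 in GASH/Sal (SE 0.127, limma adjusted p = 0.999) and 0.0073 in Syrian hamsters (SE 0.127), neither called. Across the 24 arrays, with the means of group and label series removed, Egr3 and Gabra4 correlated at -0.27.

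Gabra5 encodes the alpha5 subunit, best known from extrasynaptic receptors that carry tonic inhibition (probe set 10563872, percentile 86.2). It ranged from 6.18 to 6.49 with a median of 6.32 in naïve Syrian and from 6.15 to 6.49 with a median of 6.39 in stimulated Syrian animals. It ranged from 6.12 to 6.69 with a median of 6.37 in naïve GASH/Sal and from 6.30 to 6.52 with a median of 6.38 in stimulated GASH/Sal animals. The 4 groups overlapped throughout. Group means started at 6.33 in naïve Syrian animals, and each step between neighbours was smaller than any group's SD. The sound response was 0.0024 in GASH/Sal (95% interval -0.17 to 0.17) and 0.045 in Syrian hamsters (95% interval -0.12 to 0.21). With both apart arrays left out the responses were 0.020 and 0.091. The GASH/Sal interval with all arrays ended at 1.12-fold, the narrowest bound among the subunits for that comparison. The averaged sound response was 0.17 in series A and -0.12 in series B, opposite in sign.

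Gabrb1 encodes the beta1 subunit, which contributes a face of the GABA site (probe set 10522324, percentile 79.0). Naïve Syrian arrays ranged from 5.16 to 5.95 with a median of 5.83. Naïve GASH/Sal arrays ranged from 4.76 to 6.53 with a median of 6.16. The 2 groups were separated except for a single array, since 5 of 6 naïve GASH/Sal arrays, at 6.04 to 6.53, lay above the highest naïve Syrian array and replicate 6, at 4.76, lay below the lowest. The means were 6.01 ± 0.639 (SD, n = 6) and 5.75 ± 0.294 (SD, n = 6), a difference of 0.26 with a standard error of 0.179 and a limma adjusted p of 0.872. Without naïve GASH/Sal replicate 6 the difference was 0.47, or 1.39-fold (SE 0.137, limma adjusted p = 0.240). Without both arrays that stood apart it was 0.48 (limma adjusted p = 0.108). The difference was 0.36 in series A and 0.15 in series B with all arrays.

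After sound, Gabrb1 ranged from 5.44 to 6.26 with a median of 5.99 in Syrian and from 5.53 to 6.54 with a median of 6.17 in GASH/Sal animals. These groups overlapped, with 3 of 6 GASH/Sal arrays above the Syrian mean, and the strain difference was 0.14 (SE 0.179), or 0.057 with both apart arrays left out. The sound response was 0.23 in Syrian hamsters (SE 0.179) with 5 of 6 arrays above the naïve mean. There it was 0.31 with both apart arrays left out (limma adjusted p = 0.464). In GASH/Sal hamsters it was 0.11 (SE 0.179) with all arrays and -0.11 without naïve replicate 6, so its sign rested on that array. Group means ran from 5.75 in naïve Syrian through 5.98 and 6.01 to 6.12 in stimulated GASH/Sal animals, and each step was smaller than any group's SD. Gabrb1 was also the subunit that followed the label series, with a log2 difference of series B minus series A of -0.42 (SE 0.127, limma adjusted p = 0.0403). It was the 1 subunit of 7 called between the series, where 6.89% of all genes were called. Without the 2 arrays that stood apart the series difference was -0.27 (adjusted p = 0.0743), no longer called, and both arrays belong to series B.

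Gabrb2 encodes the beta2 subunit, a widespread beta subunit of the brain (probe set 10375245, percentile 99.7). Naïve Syrian arrays ranged from 9.26 to 9.69 with a median of 9.66. Naïve GASH/Sal arrays ranged from 8.50 to 10.04 with a median of 9.85. As for Gabrb1, 5 of 6 naïve GASH/Sal arrays, at 9.83 to 10.04, lay above the highest naïve Syrian array and replicate 6 lay below the lowest. The means were 9.68 ± 0.586 (SD, n = 6) and 9.58 ± 0.166 (SD, n = 6), a difference of 0.10 with a standard error of 0.157 and a limma adjusted p of 0.947. Without replicate 6 the difference was 0.33, or 1.26-fold (SE 0.0985, limma adjusted p = 0.269), and without both arrays that stood apart it was also 0.33 (limma adjusted p = 0.0728). Neither was called.

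After sound, Gabrb2 ranged from 9.15 to 9.92 with a median of 9.67 in Syrian and from 9.75 to 10.05 with a median of 9.84 in GASH/Sal animals. All 6 stimulated GASH/Sal arrays lay above the stimulated Syrian mean, but the upper Syrian arrays fell within their range. The strain difference after sound was 0.22, or 1.16-fold (SE 0.157, limma adjusted p = 0.907), and it was 0.13 when both arrays that stood apart were left out. The sound response was 0.067 in Syrian hamsters (SE 0.157) and 0.16 there with both apart arrays left out. In GASH/Sal hamsters it was 0.18 (SE 0.157) with all arrays and -0.044 without naïve replicate 6. Averaged over sound conditions, the strain difference of Gabrb2 was 0.16 with all arrays and 0.27 without naïve GASH/Sal replicate 6 (limma adjusted p = 0.0888), with 0.18 in series A and 0.14 in series B. With all arrays the series opposed each other in the single comparisons. The naïve strain difference was 0.27 in series A and -0.067 in series B. The GASH/Sal sound response was -0.018 in series A and 0.38 in series B. Naïve GASH/Sal replicate 6, at 8.50, belongs to series B and enters the naïve strain difference and the GASH/Sal sound response. Without it, over both series, the naïve strain difference was 0.33 and the GASH/Sal sound response -0.044. Group means ran from 9.58 in naïve Syrian through 9.65 and 9.68 to 9.86 in stimulated GASH/Sal animals. The last step exceeded the SD of the stimulated GASH/Sal group (0.116) and of the naïve Syrian group (0.166). It did not exceed that of the stimulated Syrian (0.268) or naïve GASH/Sal group (0.586). Gabrb2 had 3 probe sets, and the other two lay far lower, at means of 5.29 and 4.54. Their differences between naïve strains were 0.098 and 0.28, and their differences after sound were -0.084 and 0.22.

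Gabrd encodes the delta subunit, which replaces gamma in extrasynaptic receptors sensitive to neurosteroids (probe set 10519124, percentile 65.8). It ranged from 5.20 to 5.60 with a median of 5.55 in naïve Syrian and from 5.18 to 5.52 with a median of 5.41 in stimulated Syrian animals. It ranged from 5.20 to 5.79 with a median of 5.44 in naïve GASH/Sal and from 5.21 to 5.82 with a median of 5.54 in stimulated GASH/Sal animals. The groups overlapped, and the array that was lowest for the beta subunits in naïve GASH/Sal was the highest for Gabrd. The sound response was -0.089 in Syrian and 0.087 in GASH/Sal hamsters (SE 0.0892 each). With all arrays Gabrd was the only subunit apart from Gabra2 with opposite signs in the strains. With both apart arrays left out its responses were -0.088 and 0.14, and those of Gabra4, Gabrb1 and Gabrb2 had opposite signs too. The interaction of Gabrd with all arrays was 0.18 (SE 0.126, limma adjusted p = 0.999955). The strain difference after sound was 0.14 (SE 0.0892) with 5 of 6 GASH/Sal arrays above the Syrian mean (limma adjusted p = 0.901). Each step between neighbouring group means was smaller than any group's SD.

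**Figure D2:**
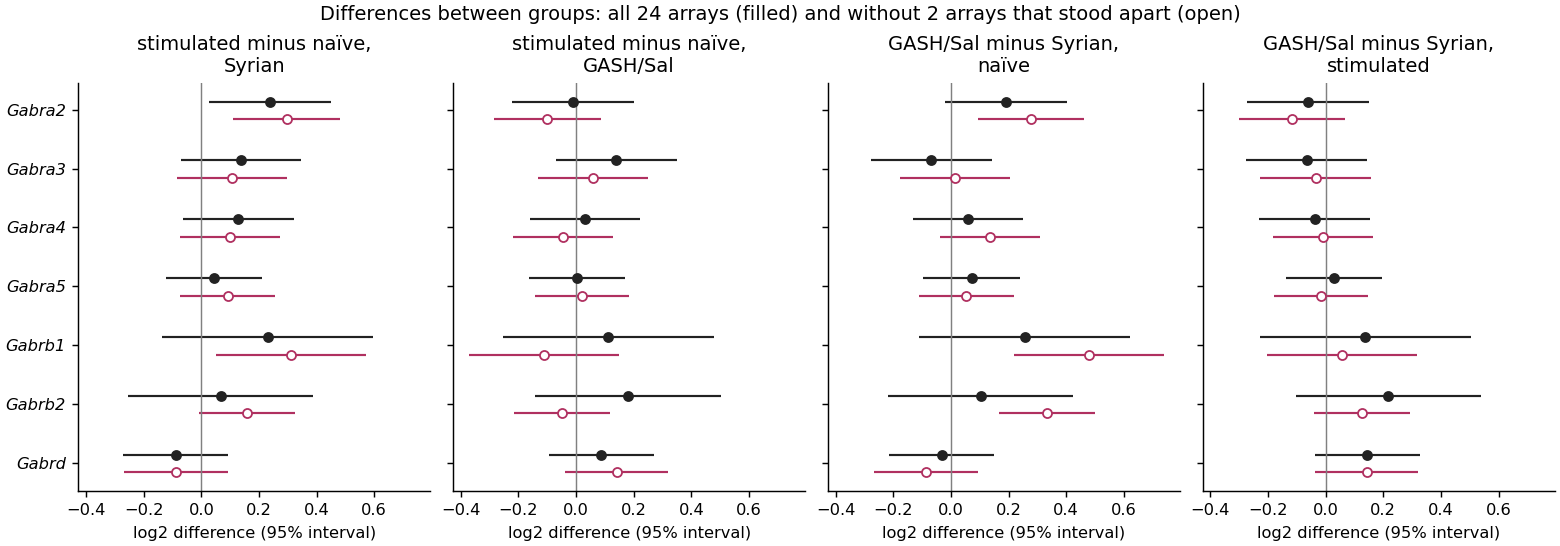
Log2 difference of each subunit (horizontal axes) with its 95% interval in 4 comparisons, from the fit of all 24 arrays (filled) and without the 2 arrays that stood apart (open). With all arrays every interval holds 0 except that of Gabra2 in the Syrian sound response (0.24). Without the 2 arrays the intervals of the naïve strain differences of Gabra2 (0.28), Gabrb1 (0.48) and Gabrb2 (0.33) lie above 0. So do those of the Syrian sound responses of Gabra2 (0.30) and Gabrb1 (0.31).

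The sound response of the 7 subunits lay mostly above 0 in both strains. In GASH/Sal hamsters 6 of 7 subunits had a higher mean after sound, with a median difference of 0.087 against 0.013 over all genes. No subunit reached an unadjusted p under 0.05 there, against 4.46% of all genes, and all 7 intervals held 0. The intervals allowed at most a 1.42-fold difference (Gabrb2). Without the 2 arrays that stood apart 3 of 7 subunits were higher, with a median of -0.046, so that the count rested on them. In Syrian hamsters 6 of 7 were higher, with a median of 0.13 against 0.019 over all genes, 6 of 7 intervals held 0, and the widest bound was 1.51-fold (Gabrb1). Without the arrays that stood apart 6 of 7 were higher, with a median of 0.11. The intervals of Gabra2 (0.11 to 0.48) and Gabrb1 (0.051 to 0.57) then lay above 0, neither called. Of all genes 1814 then had an unadjusted p under 0.05. With all arrays the median was 0.22 in series A and 0.042 in series B. Averaged over strains the median was 0.11 against 0.015 over all genes, with 0.17 in series A, 0.033 in series B and 0.056 with both apart arrays left out. No subunit had an unadjusted p under 0.05 (7.39% of all genes did), and the widest bound was 1.35-fold (Gabrb1).

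The median strain difference of the subunits, with all arrays, had opposite signs in the label series, among naïve and among stimulated animals. In naïve animals 5 of 7 were higher in GASH/Sal, with a median of 0.072 against -0.011 over all genes. In series A 6 of 7 were higher, with a median of 0.19, and in series B 3 of 7, with a median of -0.062. Both apart arrays, among them naïve GASH/Sal replicate 6, belong to series B, and series B was not fitted without them. Over both series, leaving them out gave 6 of 7 higher, with a median of 0.14. With all arrays no subunit had an unadjusted p under 0.05, against 6.02% of all genes. The widest bound was 1.54-fold (Gabrb1). With both apart arrays left out the 95% intervals of Gabra2, Gabrb1 and Gabrb2 lay above 0, and 2180 of all genes then had an unadjusted p under 0.05. In stimulated animals 4 of 7 were higher, with a median of 0.030 against -0.014 over all genes, 0.082 in series A, -0.018 in series B and -0.010 with both apart arrays left out. Again none had such a p, against 5.42% of all genes. For the interaction 3 of 7 were above 0 and none had an unadjusted p under 0.05, against 3.68% of all genes. With both apart arrays left out 1 of 7 was above 0, and the median went from -0.042 to -0.15. The 95% intervals of Gabra2 (-0.66 to -0.13) and Gabrb1 (-0.79 to -0.052) then lay below 0, neither called. The interaction of Gabrb2 went from 0.11 to -0.21. Of all genes 1290 then had an unadjusted p under 0.05. Averaged over sound conditions 6 of 7 were higher in GASH/Sal, with a median of 0.056 against -0.015, none with such a p against 7.99% of all genes, and the widest bound was 1.37-fold (Gabrb1). All intervals of all 7 comparisons ended below 2-fold.

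**Figure D3:**
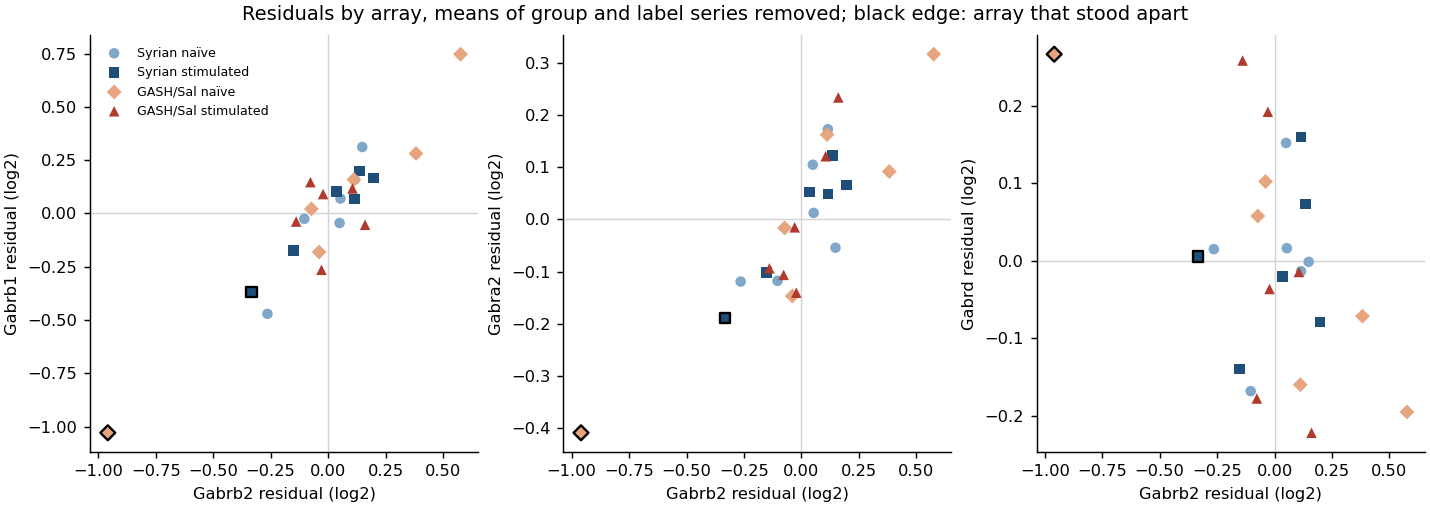
Residuals of single arrays (log2, means of group and label series removed) of Gabrb2 on the horizontal axes against Gabrb1, Gabra2 and Gabrd on the vertical axes. Symbols mark the 4 groups and black edges the 2 arrays that stood apart. Gabrb1 and Gabra2 run with Gabrb2 over arrays (r = 0.93 and 0.87), and Gabrd runs against it (r = -0.48).

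Within groups, the beta subunits varied far more than most genes. The SD over arrays, with the means of group and label series removed, was 0.393 for Gabrb1 (percentile 99.5 of all genes) and 0.336 for Gabrb2 (percentile 98.9), against a median of 0.151 over all genes. Without the 2 arrays that stood apart it was 0.221 for Gabrb1, still at percentile 95.9, and 0.137 for Gabrb2, at percentile 51.0. Gabra5 varied least, with an SD of 0.114 (percentile 14.6). Leaving out those arrays thus brought Gabrb2 to the middle of all genes and left Gabrb1 among the most variable.

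Gabrb1, Gabrb2 and Gabra2, the subunits that varied most over the 24 arrays, did so together. Gabrb1 and Gabrb2 correlated at 0.93 over the 24 arrays (0.85 without the arrays that stood apart), Gabra2 and Gabrb2 at 0.87 (0.79), Gabra2 and Gabrb1 at 0.77 (0.59) and Gabra4 and Gabrb1 at 0.68 (0.69). Of the 21 pairs of subunits 14 correlated above 0, with a median of 0.39, while the median over correlations of a subunit with any gene was -0.030. Gabrd correlated below 0 with all 6 other subunits, from -0.14 with Gabra4 to -0.51 with Gabrb1, and Gabra5 was nearly unrelated to the other alpha subunits. Without the 2 arrays Gabrd and Gabra4 correlated at 0.079, so the sign of that pair was lost. These values are descriptions, since the arrays share their normalisation and their probes.

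**Figure D4:**
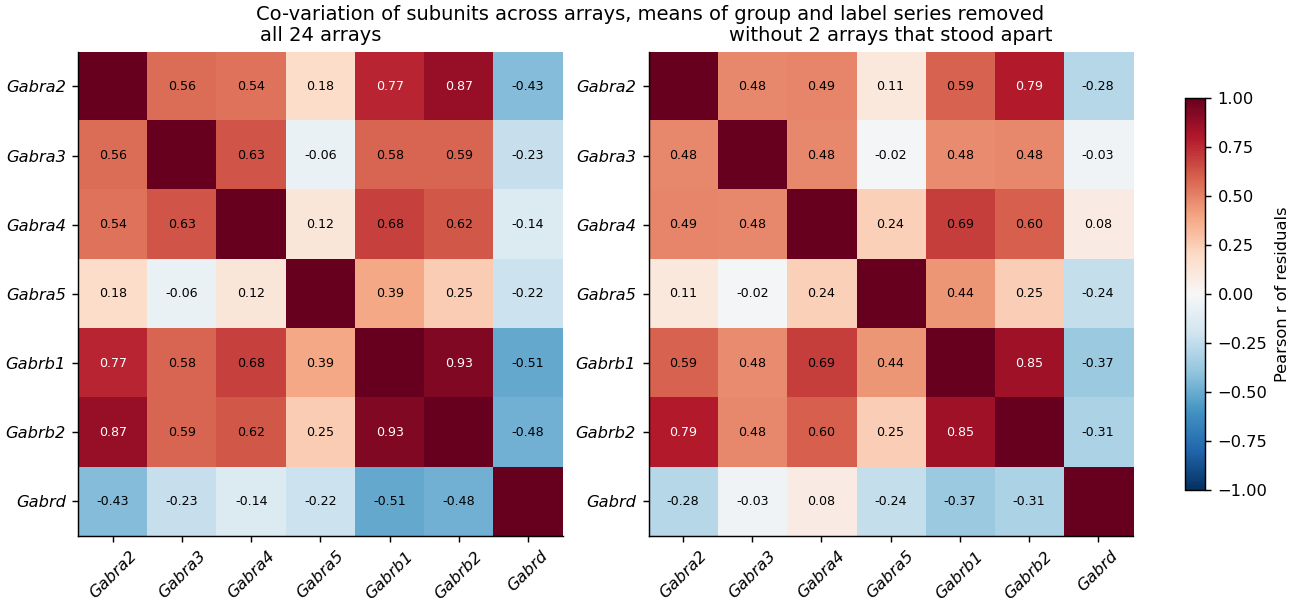
Pearson correlation of the residuals of each pair of subunits (colour and number) over all 24 arrays on the left and without the 2 arrays that stood apart on the right. Gabra2, Gabra3, Gabra4, Gabrb1 and Gabrb2 correlate positively with each other in both panels, and Gabrd lies apart from them.

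The genes that followed each subunit most closely over the 24 arrays were named by rank of correlation, the closest 3 for each, and many genes followed the beta subunits. For Gabrb2 they were Gria2 (r = 0.99), which encodes an AMPA receptor subunit, Vps41 (0.98) and Matr3 (0.97), and 510 genes in all correlated above 0.8. When both apart arrays were left out, Gria2 correlated at 0.92 and 46 genes lay above 0.8. For Gabrb1 they were Cpeb4 (0.97), Cep170 (0.96) and Spag9 (0.95), with 404 genes above 0.8, or 29 without the 2 arrays. For Gabra2 they were Scn1a (0.92), which encodes a sodium channel, Atf2 (0.90) and Kpna3 (0.90), with 152 genes above 0.8, or 3 without the 2 arrays. The large neighbourhoods thus shrank when those arrays were left out.

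The other subunits had fewer genes above 0.8 over the 24 arrays. Gabra3 ran with Tomm70a (0.90), Septin2 (0.90) and Eif2ak3 (0.89), with 31 genes above 0.8, or 22 without the 2 arrays. Gabra4 ran with Polk (0.85), Mid2 (0.83) and Phtf1 (0.83), with 10 genes above 0.8, or 2 without the 2 arrays. Gabra5 ran with Snap29 (0.79), Hoxd1 (0.77) and Nox4 (0.76), and Gabrd with Nckipsd (0.80), Ercc2 (0.80) and Car11 (0.78). For these 2 subunits 0 genes lay above 0.8, and without the 2 arrays 3 did for Gabra5 and 2 for Gabrd.

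Markers of other cells were read on the same arrays. Over the 24 arrays Gabrb2 correlated at 0.61 with the mean of 10 neuron markers, at -0.70 with the mean of 7 telencephalon markers and at -0.063 with the mean of the 3 GABAergic markers Gad1, Gad2 and Slc32a1. Without the 2 arrays that stood apart these values were 0.40, -0.37 and 0.13. On naïve GASH/Sal replicate 6 the telencephalon list had a mean of 4.81, the highest of its group (range 4.43 to 4.81), and the GABAergic list had a mean of 7.28, also the highest (range 6.91 to 7.28). The lists of IC and midbrain (6.44) and vessels (5.55) were the highest of the group on this array too, and that of astrocytes (6.61) was the lowest. The neuron list was at 7.95, within the range of that group (7.73 to 8.15). Stimulated Syrian replicate 4 was the highest of its group for telencephalon (4.83), IC and midbrain (6.47), cerebellum (5.27), astrocytes (6.87), oligodendrocytes (6.36), vessels (5.59) and choroid plexus (4.49), and the lowest for neurons (7.79). Between naïve strains 6 of 10 neuron markers were higher in GASH/Sal, with a median of 0.089, and 2 of 3 GABAergic markers were higher, with a median of 0.15. Of all genes 45.8% were higher there. In the Syrian sound response 7 of 10 neuron markers were higher, with a median of 0.027, against 57.5% of all genes. For the sound response averaged over strains 6 of 8 oligodendrocyte markers were higher (median 0.12), and 4 of the 8 had an unadjusted p under 0.05. Of all genes 58.3% were higher in that comparison and 7.39% had such a p. Higher too were 8 of 10 markers of IC and midbrain (median 0.048) and 6 of 10 neuron markers (median 0.034). Among the other lists, the strain difference averaged over sound conditions was above 0 for 8 of 8 oligodendrocyte markers (median 0.076), 4 of 11 cerebellar markers (median -0.021), 5 of 10 markers of IC and midbrain (median -0.0019), 3 of 9 astrocyte markers (median -0.030), 3 of 8 microglial markers (median -0.0074), 3 of 8 vessel markers (median -0.024) and 3 of 7 choroid plexus markers (median -0.017). The same difference was above 0 for 9 of 10 neuron markers (median 0.092), 2 of 3 GABAergic markers (median 0.076) and 2 of 7 telencephalon markers (median -0.041). An unadjusted p under 0.05 was reached by 3 of the 10 neuron markers and 3 of the 8 oligodendrocyte markers, all higher in GASH/Sal. For that difference 42.6% of all genes lay above 0 and 7.99% had such a p. Among stimulated animals alone 8 of 10 neuron markers were higher in GASH/Sal (median 0.10), against 44% of all genes. No marker was called in any comparison, and the part of cell composition in the values of the subunits was not tested.

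**Figure D5:**
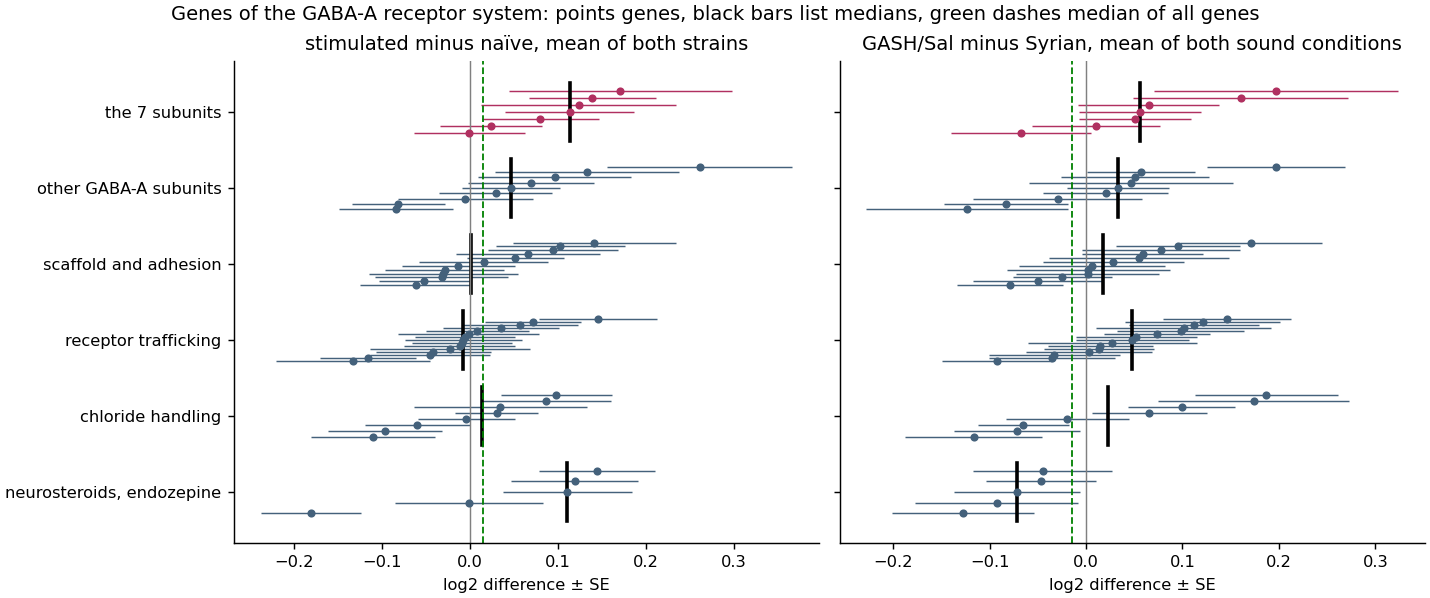
Log2 difference ± SE (horizontal axes) of single genes (points) of the 7 subunits and of 5 lists of the GABA-A receptor system, for the sound response averaged over strains (left) and the strain difference averaged over sound conditions (right). Black bars are list medians and the green line is the median of all genes. The subunits have a median of 0.11 on the left and 0.056 on the right, and no gene shown was called.

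The other subunits on the table were the alpha6, gamma1, gamma3, epsilon, pi, theta and rho subunits, 9 genes in all, and 0 of 9 were called in any comparison. Gabrq, which encodes the theta subunit, ranged in naïve animals from 5.44 to 5.75 with a median of 5.53 in Syrian and from 5.45 to 6.07 with a median of 5.86 in GASH/Sal hamsters. It was higher in GASH/Sal by 0.28 (SE 0.101, limma adjusted p = 0.764), with overlapping groups. Gabrg1, which encodes the gamma1 subunit, had a sound response of 0.29 in GASH/Sal (SE 0.150) and 0.23 in Syrian hamsters (SE 0.150). Averaged over strains this was 0.26 (SE 0.106, limma adjusted p = 0.598). Gabra6, the alpha subunit of cerebellar granule cells, had a sound response averaged over strains of 0.13 (SE 0.104). The other 6 had averaged sound responses between -0.084 (Gabre) and 0.096 (Gabrr3), and Gabrq was at 0.070.

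Of the genes that anchor, move or serve the receptor, 0 were called in any comparison. Beside the counts below, 58.3% of all genes were higher after sound averaged over strains. In the strain difference averaged over sound conditions 42.6% were higher in GASH/Sal. Of 12 scaffold and adhesion genes 6 were higher after sound averaged over strains, with a median of 0.00091. They ran from 0.14 for Gphn, which encodes the scaffold protein gephyrin (SE 0.0930), to -0.062 for Mdga1, which encodes a protein that limits neuroligin binding (SE 0.0630). Between strains 9 of 12 were higher in GASH/Sal, from Dmd, which encodes dystrophin (0.17, SE 0.0735), to Dag1, which encodes dystroglycan (-0.079, SE 0.0549).

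Of 15 trafficking genes 5 were higher after sound averaged over strains, with a median of -0.0079. They ran from 0.15 for Trak2, which encodes an adaptor of mitochondrial and receptor transport (SE 0.0674), to -0.13 for Gabarapl1, which encodes a relative of the GABA-A receptor-associated protein (SE 0.0878). Between strains 12 of 15 were higher in GASH/Sal, with a median of 0.048, from Hap1, which encodes a transport adaptor (0.15, SE 0.0667), to Plcl2, which encodes a phosphatase-binding protein of the receptor (-0.093, SE 0.0571).

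Of 8 chloride and bicarbonate genes, which set the driving force through the channel, 4 were higher after sound and 4 were higher in GASH/Sal. The sound response ran from 0.098 for the kinase gene Oxsr1 (SE 0.0637) to -0.11 for the kinase gene Stk39 (SE 0.0709). The strain difference ran from 0.19 for Wnk3, which encodes a kinase of the chloride cotransporters (SE 0.0740), to -0.12 for Stk39 (SE 0.0709). Of 5 genes of neurosteroid and endozepine ligands 3 were higher after sound. The lowest was Dbi, which encodes the endozepine precursor that binds the benzodiazepine site, at -0.18 (SE 0.0570, limma adjusted p = 0.448), with -0.15 in GASH/Sal and -0.21 in Syrian hamsters. The highest was Akr1c14, which encodes a steroid reductase, at 0.14 (SE 0.0656). Between strains 0 of 5 were higher in GASH/Sal, from -0.045 for Cyp11a1, which encodes the enzyme that makes pregnenolone, to -0.13 for Star, which encodes the carrier of its cholesterol, with a median of -0.071.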

How the data were processed

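IC RNA of 24 hamsters was hybridised to Affymetrix arrays with mouse probes. The deposited values are log2 signals that the authors made with RMA, as the submitters' processing notes name it, with no version stated. The table held 35556 probe sets, with array medians from 4.50 to 4.65. Of these 21789 had a single gene symbol, 1621 had several and 12146 had none, and each of 19938 genes was represented by its brightest probe set on average. Arrays hold no read depth, and their number limits the precision. The median standard error of a difference between groups was 0.0895.

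Groups came from the GEO labels. All 24 arrays were fitted with limma 3.58.1 in R 4.3.3, with a mean for each of 4 groups and a term for label series (19 residual degrees of freedom), empirical Bayes moderation and Benjamini-Hochberg adjustment over all genes. The code was tested on simulated data. The SAM rule of the study was given for its rat arrays and was not used. Correlations are Pearson's r of residuals after removal of the means of each group and label series. Members, gene lists and tests were chosen with earlier results of these data known. Named genes were the subunits, any called gene of the lists, the highest and lowest gene of each pathway list, the other subunits, the 3 closest genes of each subunit, and Egr3 beside Gabra4.

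Replicate numbers 1 to 6 recur in all groups, and whether they pair the arrays was checked. Alternatives covered the series term, a replicate block, each series alone, the groups of a comparison alone, a filter on dim genes, the choice of probe set, centring, quantile normalisation, moderation, array weights, fold rules, and leaving out single arrays or both arrays that stood apart. A search for motifs in promoters was not run, since no promoter sequence was used here.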

Additional observations from a re-analysis of the deposited data

Results flagged for a closer look

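In 6 of 28 combinations of subunit and group, 1 array lay farther from the others of its group than Dixon's 95% criterion allows, a criterion that chance alone passes in about 1 of 20 groups. They fell on 3 arrays. Naïve GASH/Sal replicate 6 was low for Gabrb1, at 4.76 with the nearest array at 6.04, and for Gabrb2, at 8.50 with the nearest at 9.83. Stimulated Syrian replicate 4 was low for Gabrb1, at 5.44 with the nearest at 5.98, and for Gabra5, at 6.15 with the nearest at 6.36. Naïve Syrian replicate 5 was low for Gabrb1, at 5.16 with the nearest at 5.79, and for Gabrb2, at 9.26 with the nearest at 9.53. All 3 arrays belong to series B. The first and second are those with the lowest median correlation to the other arrays (0.971 and 0.969), and the last had the fourth lowest (0.984).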

How the results depend on the processing

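No subunit was called under the 36 or 37 alternatives run for each comparison (256 counts over the 7 comparisons). Of 1792 values of single subunits in them, 87 had another sign and 12 moved by at least 1 residual SD, and 25 of 49 subunit results kept their sign throughout. The replicate numbers did not pair the arrays, since 12 of 36 same-number pairs correlated above 0.1 (median 0.0528, against 0.0831 for other pairs of a series) and 7 of 24 arrays correlated best with their own number. With the replicate block the count of genes called for the averaged strain difference went from 2 to 0. That count was also 0 with no series term, in series A or B alone, with every probe set and at 2-fold. It was 3 with the filter on dim genes, 5 with centring, 4 with quantile normalisation, 19 with array weights, 36 without both arrays that stood apart and 1 at 1.5-fold. Leaving out single arrays gave 0 to 36, highest without naïve GASH/Sal replicate 6. For the averaged sound response the count went from 1 to 444 in series A, 0 in series B, 0 with every probe set, 14 with weights, 2 without both arrays and 0 at 2-fold, and to between 1 and 12 without single arrays, highest without stimulated GASH/Sal replicate 6. For the naïve strain difference it went from 0 to 2 with the filter, 1 with centring, 18 with weights, 64 without both arrays and 5 at 1.5-fold, and to between 0 and 13 without single arrays, highest without naïve GASH/Sal replicate 6. For the sound response in GASH/Sal it went from 0 to 7 in series A, 1 with the filter, 1 with trend and robust moderation, 1 with weights and 5 at 1.5-fold, and to between 0 and 1 without single arrays. For that in Syrian hamsters it went from 0 to 5 in series A and 2 at 1.5-fold, and at 1.5-fold it was 4 for the strain difference after sound and 10 for the interaction. Fold rules used an unadjusted p of at most 0.05 and were applied to the count of all genes only, not to the subunits. Without single arrays the median of the subunits ran from -0.044 to 0.11 for sound in GASH/Sal, 0.065 to 0.17 for sound in Syrian hamsters, 0.010 to 0.14 between naïve strains, -0.0059 to 0.056 between stimulated strains, -0.11 to 0.038 for the interaction, 0.041 to 0.15 for averaged sound and 0.031 to 0.075 for averaged strain. The causes were not tested.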
